A study of Mus musculus with 12 samples.

Results

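The autophagy and lysosome genes described here are 36 genes picked by symbol from 55450 genes in tables of mouse CD4 T cell RNA. All 36 were found in the tables, and all passed the low-count filter of the 3 fits behind the values given here. They comprise 23 genes of the autophagy core, the transcription factors Tfeb and Tfe3, and 11 lysosomal genes. The core holds 5 genes of the ULK complex, 6 of the lipid kinase complex and the growing membrane, and 6 of conjugation. It also holds 5 of the Atg8 family and the cargo receptor Sqstm1. The lysosomal genes are 3 of the membrane, 5 cathepsins and 3 other proteins of the lumen. The cells were T cells from wild type (WT) or Pkm2 knockout (KO) mice, described by the submitters as naive and as CD4 positively selected, and the labels name the spleen as their source while the series text adds lymph nodes. All cells spent 24 h in medium with 25 ng/mL human IL7, a cytokine that keeps resting T cells alive. Resting cells received IL7 alone, and stimulated cells were also plated on aCD3 (coated at 1 ug/mL) and aCD28 (2 ug/mL), antibodies that trigger the T cell receptor and its costimulator. Each of the 4 groups has 3 libraries. The sources used here do not give the knockout allele, what drives its deletion, or the strain, age and sex of the mice, and nothing says whether libraries of a group came from separate mice, so p-values measure the spread between libraries only.

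Autophagy encloses cytoplasm in a double membrane and delivers it to the lysosome. The ULK kinase complex starts the process, a lipid kinase complex built on Vps34 and Beclin 1 marks the membrane, ubiquitin-like conjugation steps attach Atg8 proteins (LC3 and GABARAP) to it, and receptors such as p62, the product of Sqstm1, bring in cargo. Lysosomal proteases (cathepsins) and other hydrolases then break the cargo down, and TFEB and TFE3 are known to switch on many lysosomal and autophagy genes through short E-box motifs. T cells need autophagy for survival and for their metabolic switch on activation, while macrophages and other phagocytes are known for very high levels of cathepsins.

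TFEB and TFE3 bind the E-box CACGTG, and its letters are shown at Lamp1, which holds 4 matches, and at the 3 members with the longer palindrome TCACGTGA. The search covered RefSeq windows on GRCm38.p6 from 250 bases before to 50 bases after each start. The motif is its own reverse complement, so 1 search covers both strands, and TCACGTGA contains it. Capitals mark CACGTG, and all sequences read 5′ to 3′ on the gene's strand. The Lamp1 stretch, chr8:13159041-13159160 on the plus strand, lies before the annotated start. The Atg3 sites are chr16:45158723-45158752 and chr16:45158746-45158775 (plus strand), the Mcoln1 sites chr8:3500436-3500465 and chr8:3500462-3500491 (plus strand), and the Ctsd sites chr7:142388048-142388077 and chr7:142387908-142387937 (minus strand). The second site of each of these 3 genes lies in TCACGTGA.
Lamp1: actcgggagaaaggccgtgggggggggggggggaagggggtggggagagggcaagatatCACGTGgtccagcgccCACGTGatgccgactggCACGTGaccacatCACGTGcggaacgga
Atg3 first site: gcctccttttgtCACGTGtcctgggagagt
Atg3 second site: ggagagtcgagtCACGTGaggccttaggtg
Mcoln1 first site: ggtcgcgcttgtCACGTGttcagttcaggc
Mcoln1 second site: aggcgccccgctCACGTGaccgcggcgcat
Ctsd first site: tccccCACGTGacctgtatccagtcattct
Ctsd second site: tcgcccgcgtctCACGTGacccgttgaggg

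A CACGTG was present at 9 of the 29 members that had an entry (31.0%), compared with 8.09% of all 27025 genes with a window of the same length (7.15% of the 32851 windows). These 9 were Lamp1, Mcoln1, Ctsd, Ctsl and Gaa among the lysosomal genes and Atg3, Atg5, Atg7 and Atg14 in the autophagy core. The longer TCACGTGA was present at 3 members and at 1.12% of all genes (0.974% of the windows). Rb1cc1, Becn1, Pik3c3, Atg12, Atg16l1, Map1lc3a and Ctsb had no entry. After stimulation of WT cells, 4 of the 9 members with the motif were higher, 4 were lower and 1 (Lamp1) was not called, while of the 20 matched members without it 4 were higher, 14 lower and 2 not called. Over all genes tested 39.3% were higher and 44.8% lower, and no difference between members with and without the motif was tested. A match describes letters in a window and shows no binding.

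Levels are given as CPM, gene counts brought to a common library size, with sizes scaled by the trimmed mean of M values (TMM). Each library held 63266477 to 76891786 counts, and 3 counts correspond to 0.0390 to 0.0474 CPM. Pkm, the gene that encodes PKM2, measured 424, 431 and 509 CPM in the WT resting libraries and 172, 195 and 188 in the KO resting ones. It measured 2483, 2450.4 and 2521 CPM in WT stimulated and 1056, 1065 and 1036 in KO stimulated libraries. Within each condition every KO library had less Pkm than every WT one, by a gene-level count that also takes in the PKM1 transcript. T cell genes were present throughout, with 18 of them summing to 6939 to 8677 CPM at rest and 4712 to 4854 after stimulation. These are Cd4 and genes such as Cd3e and Trac that are not particular to CD4 cells. The CD8 T cell genes Cd8a and Cd8b1 together measured 42.9 to 61.1 CPM at rest and 17.3 to 36.4 after stimulation. Markers of other cells were present too, and the largest sums at rest were those of myeloid, B cell and, in some libraries, erythroid markers. The 20 myeloid markers, none at 0 in any library, summed to 4502, 2469 and 1632 CPM in the WT resting libraries, 1439, 1484 and 1472 in KO resting, 85.2, 129.8 and 96.0 in WT stimulated and 179, 177 and 172 in KO stimulated. Sums of 8 erythroid markers were 1507, 454 and 56.8 CPM in WT resting and 1469 in KO resting replicate 1, with the other KO resting libraries at 203 or less, and 15.8 to 80.0 after stimulation. Resting and stimulated libraries were deposited in separate tables, and Xist was at 0.0496 to 0.0867 CPM in the resting and 941 to 1126 in the stimulated libraries while Ddx3y, a Y-linked gene, was at 143 to 167 and at 0. By these transcripts the resting libraries looked male and the stimulated ones female. A difference between resting and stimulated cells therefore cannot be told apart from one of sex or between these sets of source animals. Fewer cells of a type likewise cannot be told apart from less RNA per cell.

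The response to stimulation was the largest difference among the members. In WT cells 10 of 36 rose and 23 fell, and in KO cells 11 rose and 22 fell. The background was as large: 84.1% of all genes tested were called in WT (39.3% higher and 44.8% lower) and 82.9% in KO (39.6% and 43.2%). In both genotypes 10 members rose and 22 fell. Lamp2 was called lower in WT and not called in KO, Tfe3 was called higher in KO and not called in WT, and Wipi2 and Lamp1 were called in neither. For Lamp2 and Tfe3 the difference between the genotypes in response did not pass its own test (edgeR adjusted p = 0.18 and 0.34). The median log2 fold change over the 36 was -0.58 in WT and -0.46 in KO, beside -0.14 and -0.11 over all genes. Calls rest on the quasi-likelihood test of edgeR at an adjusted p under 0.05, with p-values adjusted by Benjamini and Hochberg's method over all genes.

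**Figure D1:**
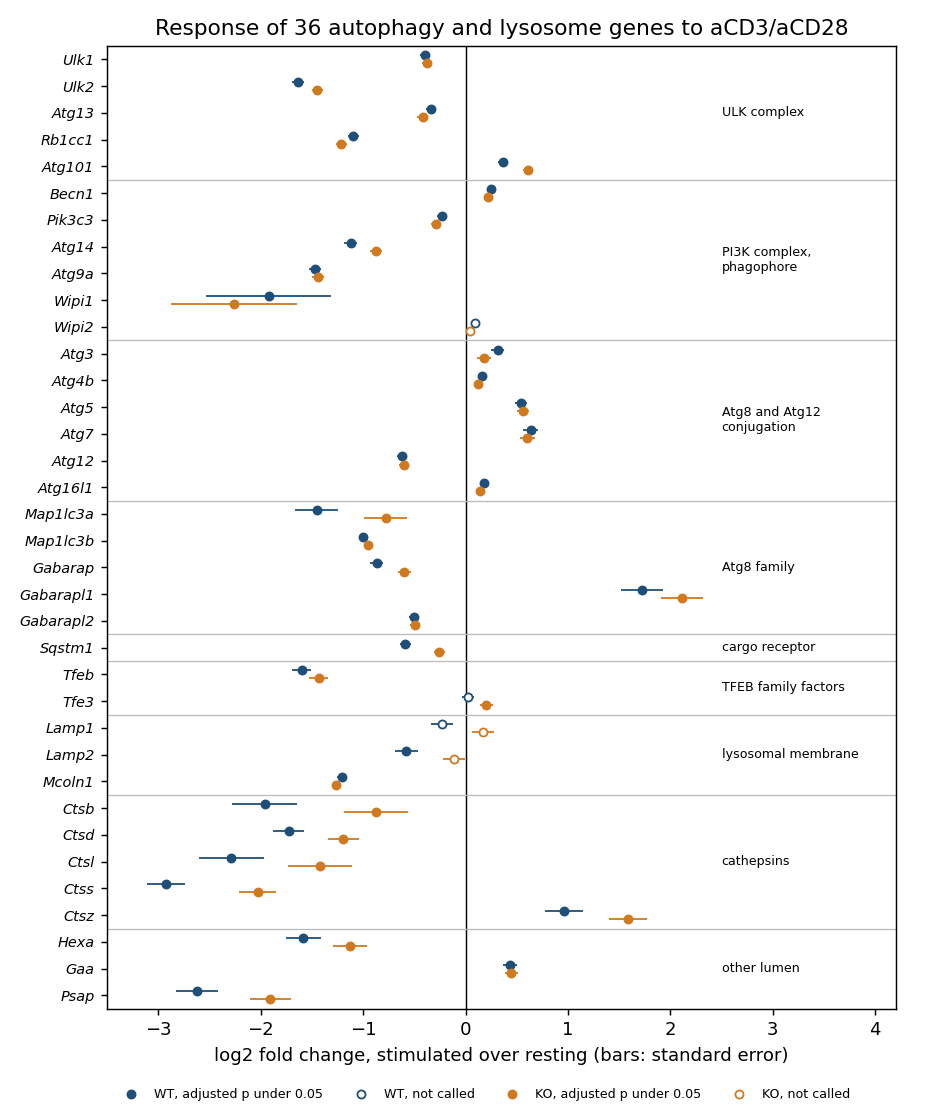
Log2 fold change of each of the 36 members, stimulated over resting, in WT (blue) and KO (orange) cells, grouped by role, with bars of 1 standard error, filled points for an adjusted p under 0.05 and open points for members not called. Within the autophagy core 5 of 6 conjugation genes lie above 0 and 4 of 5 ULK complex genes below it. The cathepsins other than Ctsz lie below 0.

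Scaling bears on the direction of small rises. The TMM factors were 1.06 to 1.16 for resting and 0.874 to 0.902 for stimulated libraries, and without them the median of all genes moved from -0.14 to -0.47 in WT and from -0.11 to -0.44 in KO. Relative to library totals alone, only 4 members rose in WT and 5 in KO. Of all genes 31.8% were then higher and 53.6% lower in WT, and 31.7% and 52.2% in KO. Of the members that rose, Atg3, Atg4b, Atg16l1 and Becn1 then had log2 fold changes below 0 in both genotypes, at -0.03, -0.17, -0.16 and -0.09 in WT, and except for Atg3 in WT these values were called lower. Atg101 in WT and Gaa in both lost their call, and Tfe3 in KO stood at -0.13. The rises of Gabarapl1, Ctsz, Atg5 and Atg7 were called under either scaling.

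The genes that start autophagy mostly fell. Ulk2, a kinase of the ULK family, measured 63.2, 60.5 and 60.8 CPM in WT resting libraries and 20.6, 18.1 and 20.7 in WT stimulated ones, and 52.9, 58.4 and 55.2 against 20.1, 20.3 and 20.6 in KO. Every stimulated library was lower than every resting one, and the log2 fold change was -1.64 ± 0.06 (SE, n = 3 and 3, edgeR adjusted p = 1.3e-11) in WT and -1.45 ± 0.06 in KO (edgeR adjusted p = 4.3e-11). Rb1cc1, which encodes the scaffold FIP200, went from 75.0, 79.3 and 86.8 CPM to 38.8, 36.9 and 36.9 in WT, a log2 change of -1.10 ± 0.05, and by -1.21 ± 0.05 in KO. Ulk1, the main starting kinase, fell less, from 51.9 ± 0.957 (SD, n = 3) to 39.4 ± 0.203 CPM in WT and from 50.8 ± 3.12 to 39.1 ± 0.710 in KO. The adaptor Atg13 fell by 0.34 on the log2 scale in WT and by 0.42 in KO. Atg101, which stabilizes Atg13, was the exception: it measured 19.8, 19.7 and 18.2 CPM at rest and 24.5, 25.5 and 24.4 after stimulation in WT, and 16.3, 16.6 and 15.4 against 24.4, 24.9 and 24.3 in KO. Its groups did not overlap, and the log2 rise was 0.37 ± 0.05 in WT and 0.61 ± 0.05 in KO.

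Genes of the lipid kinase complex and the growing membrane moved in both directions. Becn1, which encodes Beclin 1, measured 133, 137 and 138 CPM in WT resting and 161, 163 and 161 in WT stimulated libraries (log2 0.25 ± 0.04), with a like rise in KO (0.22 ± 0.04). Pik3c3, the lipid kinase Vps34 itself, fell by 0.23 in WT and 0.29 in KO, and Atg14, the subunit that directs the kinase to autophagy, fell by 1.12 and 0.88. Atg9a, a membrane protein that carries lipid to the growing structure, measured 40.2, 39.3 and 36.2 CPM at rest and 14.5, 13.5 and 13.7 after stimulation in WT. That change, of -1.47 ± 0.06 in WT and -1.44 ± 0.06 in KO, was nearly the same in the 2 genotypes, and the interval of their difference was -0.15 to 0.21. Of the lipid readers, Wipi2 was at 70.3, 71.9 and 72.6 CPM at rest and 79.5, 73.0 and 76.7 after stimulation in WT and was not called (edgeR adjusted p = 0.060). Wipi1 was the scarcest member in every group, at 0.243 to 3.63 CPM. Its call in WT (log2 -1.92 ± 0.61, edgeR adjusted p = 0.012) was lost without WT resting replicate 1 (-1.55, adjusted p = 0.052) and without WT stimulated replicate 3 (-1.68, adjusted p = 0.050). KO resting replicate 1 held 3.63 CPM of Wipi1 beside 0.828 and 0.706 in the other KO resting libraries. Without that library the KO change of Wipi1 moved from -2.26 to -1.09. The same library had the highest erythroid sum of the KO resting libraries, as WT resting replicate 1, with 2.07 CPM of Wipi1, had of the WT ones, and the part of erythroid RNA was not tested.

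The genes of the conjugation steps, which serve to attach Atg8 proteins to the membrane, rose together, apart from Atg12. Atg7, the activating enzyme of both conjugation steps, measured 18.1, 15.1 and 14.9 CPM in WT resting libraries and 25.9, 24.2 and 24.7 in WT stimulated ones (log2 0.64 ± 0.07), and 16.3 ± 1.03 (SD, n = 3) against 24.7 ± 0.495 in KO (0.60 ± 0.07). Atg5, the partner of Atg12, went from 31.5 ± 2.53 to 45.9 ± 0.701 CPM in WT and from 31.8 ± 1.53 to 46.9 ± 1.55 in KO. Smaller rises were called for Atg3, the enzyme that loads Atg8 proteins onto lipid (0.31 ± 0.07 and 0.18 ± 0.07), for Atg4b, the protease that trims them (0.17 ± 0.04 and 0.13 ± 0.04), and for Atg16l1, which places the complex at the membrane (0.18 ± 0.04 and 0.14 ± 0.04). These 3 are among the genes whose direction depended on the scaling. In KO cells Atg3 also lost its call without KO resting replicate 1 (0.11, edgeR adjusted p = 0.092) and without KO stimulated replicate 1 (0.17, adjusted p = 0.060). Atg12, the ubiquitin-like protein that is joined to Atg5, fell from 42.2, 44.2 and 46.5 CPM to 27.7, 29.9 and 29.0 in WT (-0.62 ± 0.05) and by 0.60 in KO.

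In the Atg8 family 1 gene rose and 4 fell. Gabarapl1 (chr6:129533160-129542346, plus strand), a GABARAP-type Atg8 gene, measured 18.0, 11.0 and 9.53 CPM in WT resting, 38.7, 45.7 and 43.3 in WT stimulated, 11.6, 9.30 and 9.67 in KO resting and 44.3, 43.9 and 44.0 in KO stimulated libraries. Every stimulated library was above every resting one, and WT resting replicate 1 was the highest at rest. The rise was 3.30-fold in WT (log2 1.72 ± 0.20, edgeR adjusted p = 1.9e-05) and 4.32-fold in KO (2.11 ± 0.21, edgeR adjusted p = 4.5e-06). Map1lc3b, the widely used LC3 marker of autophagosomes, went the other way, from 118, 113 and 117 CPM to 58.4, 59.2 and 56.4 in WT, a log2 change with an interval of -1.09 to -0.92, and by -0.95 ± 0.04 in KO. Gabarap fell by 0.87 in WT and 0.60 in KO, Gabarapl2 by 0.51 and 0.50, and the scarce Map1lc3a by 1.45 and 0.78.

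Per kilobase of transcript, the family's summed level went from 254 ± 14.2 to 180.4 ± 11.4 CPM per kb in WT (SD, n = 3) and from 229.9 ± 8.80 to 185 ± 0.908 in KO. Gabarap stayed the most abundant member in all 4 groups. The share of Gabarapl1 in the sum went from 5.56% ± 1.65 to 26.1% ± 0.947 in WT and from 4.93% ± 0.717 to 26.4% ± 0.254 in KO. That of Map1lc3b went from 27.7% ± 1.01 to 19.5% ± 1.10 in WT. The annotation places exons of another gene, 1700101I11Rik, over those of Gabarapl1 on the opposite strand, and the sources used here do not say whether the counting used strand.

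**Figure D2:**
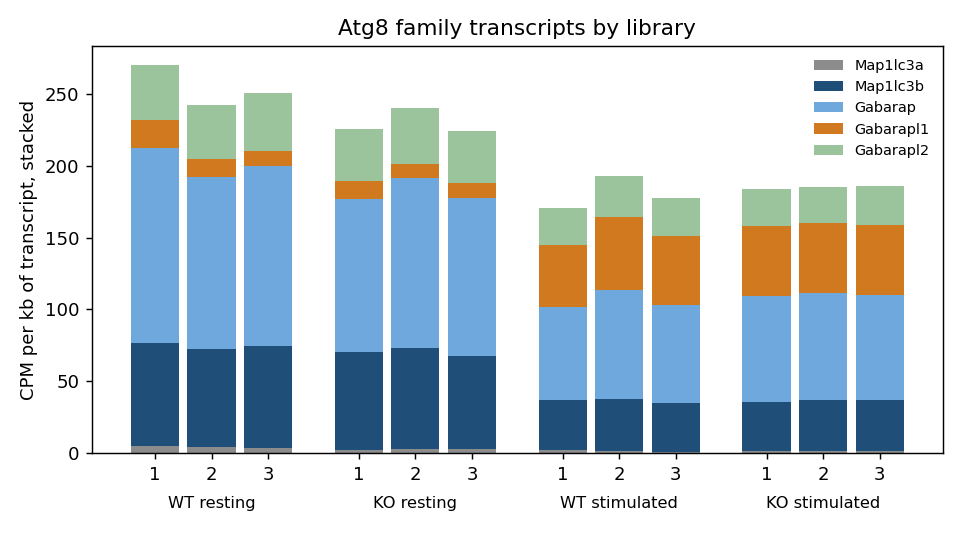
Summed level of the 5 Atg8 family genes in each of the 12 libraries, stacked by gene, in CPM per kilobase of transcript (annotated length). The orange band, Gabarapl1, is wider in all 6 stimulated libraries than in any resting one, while the total is lower.

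Sqstm1 (chr11:50199366-50210827, minus strand) encodes p62, which binds ubiquitin-tagged cargo and Atg8 proteins. It measured 188, 177 and 186 CPM in WT resting, 166, 179 and 165 in KO resting, 115, 131 and 119.8 in WT stimulated and 145, 143 and 139 in KO stimulated libraries. It was lower after stimulation in both genotypes, by 0.59 on the log2 scale in WT (SE 0.05, edgeR adjusted p = 2.7e-07) and by 0.26 in KO (SE 0.05, edgeR adjusted p = 0.00055). In stimulated cells it was higher in KO than in WT, with the lowest KO library above the highest WT one, by 0.23 ± 0.04 on the log2 scale, or 1.17-fold (edgeR adjusted p = 0.020). It was the only 1 of the 36 members called between the genotypes in stimulated cells, where 4.76% of all genes were called (3.37% higher and 1.4% lower in KO). Over the 14 alternatives its adjusted p ran from 0.00015 to 0.20. The call was lost in a fit of all 12 libraries (0.22, adjusted p = 0.073), with the myeloid marker level as a covariate (0.09, adjusted p = 0.20), and when any of KO stimulated replicates 1, 2 and 3 or WT stimulated replicate 3 was left out (0.21 to 0.25, adjusted p = 0.068 to 0.095). Myeloid marker sums were also higher in KO (172 to 179 CPM) than in WT stimulated libraries (85.2 to 129.8), and of the WT stimulated libraries replicate 2 had both the highest sum and the highest Sqstm1. All 14 B cell markers were above 0 in the same comparison. Cd8a and Cd8b1 were too, with sums of 31.7 to 36.4 CPM in KO and 17.3 to 24.0 in WT. Of the 18 T cell genes 8 were above 0 and 10 below. The myeloid sums of WT and KO stimulated libraries did not overlap, so the covariate fit cannot tell the marker level apart from the genotype. In that fit 8.59% of all genes were called (4.34% higher and 4.25% lower in KO). The part of these cells in the result was not tested. Exons of Mrnip overlap Sqstm1 on the opposite strand.

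No other member was called between stimulated WT and KO cells. In these libraries the 95% interval of every core gene apart from Wipi1 and Map1lc3a stayed within a log2 difference of 0.34 (1.26-fold) of 0, and after Sqstm1 the largest estimate among them was that of Atg14, at 0.18 ± 0.07 (edgeR adjusted p = 0.16), with 7.65 to 8.05 CPM in WT and 8.63 to 9.30 in KO. The groups did not overlap at 8 members, 6 higher and 2 lower in KO, while 28% of all genes tested did not overlap (13.4% higher and 14.6% lower). Ctss, a cysteine protease prominent in antigen-presenting cells, had the widest interval among the lysosomal genes: it measured 36.3, 55.7 and 45.7 CPM in WT and 58.9, 65.0 and 63.9 in KO. Its log2 difference was 0.46 ± 0.16, with an interval of 0.06 to 0.86 and an edgeR adjusted p of 0.19. Without WT stimulated replicate 2, which held the highest myeloid sum among the WT stimulated libraries, 5 members were called higher in KO: Sqstm1 (0.28), Ctss (0.61), Ctsz (0.29), Psap (0.17) and Gabarap (0.15). In that fit 9.14% of all genes were called, 5.95% higher in KO. With the myeloid level as a covariate, a fit that cannot tell that level apart from the genotype, Ctss stood at 0.09 and Ctsz at -0.04.

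Tfeb and Tfe3, both regulators of lysosomal genes, parted on stimulation. Tfeb measured 33.6, 27.6 and 27.7 CPM in WT resting and 9.51, 10.3 and 9.56 in WT stimulated libraries, and 26.2, 30.3 and 30.5 against 9.64, 11.3 and 11.2 in KO. The groups did not overlap, and the log2 change was -1.60 ± 0.09 in WT (edgeR adjusted p = 3.5e-09) and -1.43 ± 0.09 in KO. Tfe3, which is X-linked, stayed at 44.8 ± 4.16 and 45.5 ± 2.86 CPM in WT (log2 0.02 ± 0.06, not called) and went from 39.7 ± 0.489 to 45.7 ± 0.430 in KO (0.20 ± 0.06, edgeR adjusted p = 0.0089). The lysosomal membrane genes were likewise unequal. Mcoln1, a calcium channel of the lysosome, fell from 59.3, 62.4 and 59.9 CPM to 27.1, 26.5 and 25.2 in WT (-1.20 ± 0.05) and by 1.26 in KO. Lamp1, a major protein of the lysosomal membrane, measured 292, 216 and 200.5 CPM at rest and 198, 207 and 197 after stimulation in WT, and 181, 189.8 and 181 against 204, 209.5 and 207 in KO. Its WT groups overlapped and its KO groups did not, and it was called in neither fit of the 12 libraries (-0.23 ± 0.11 and 0.17 ± 0.11). Lamp2, which is X-linked too, fell in WT (-0.58 ± 0.11) and was at -0.11 ± 0.11 in KO. In a fit of the 6 KO libraries alone, whose spread is smaller, Lamp1 (0.15, edgeR adjusted p = 0.0011) and Lamp2 (-0.13, adjusted p = 0.013) were both called.

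Of the 5 cathepsins 4 fell on stimulation and Ctsz rose, in both genotypes. Ctss fell most: it measured 436, 309.5 and 302 CPM in WT resting and 36.3, 55.7 and 45.7 in WT stimulated libraries, and 226, 276 and 265 against 58.9, 65.0 and 63.9 in KO. That is 7.61-fold lower in WT (log2 -2.93 ± 0.19, edgeR adjusted p = 1.1e-07) and 4.09-fold lower in KO (-2.03 ± 0.18, edgeR adjusted p = 1.8e-06). Ctsb, the cysteine protease cathepsin B, measured 1273, 694 and 428 CPM in WT resting, 199, 207 and 209 in WT stimulated, 365, 355 and 361 in KO resting and 197, 193 and 199 in KO stimulated libraries. The stimulated libraries of both genotypes lay within 193 to 209 CPM, whereas the WT resting libraries spanned a 2.97-fold range. The log2 change of Ctsb was -1.96 ± 0.32 in WT and -0.88 ± 0.31 in KO (edgeR adjusted p = 0.025). The KO call was lost without KO resting replicate 1 or 3 or KO stimulated replicate 1, 2 or 3 (-0.87 to -0.85, adjusted p = 0.052 to 0.065), all fits that share the spread of the WT resting libraries, and in the 6 KO libraries alone the adjusted p was 1.8e-09. Ctsd, the aspartic protease cathepsin D, fell by 1.73 in WT and 1.19 in KO, and Ctsl by 2.29 and 1.42.

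Exons of Nelfcd overlap those of Ctsz (chr2:174427493-174439039, minus strand) on the opposite strand. Ctsz encodes cathepsin Z, a carboxypeptidase. It measured 125, 81.8 and 68.7 CPM in WT resting, 157, 203 and 177 in WT stimulated, 65.6, 70.0 and 67.8 in KO resting and 204, 203 and 204 in KO stimulated libraries. All stimulated libraries exceeded all resting ones, and the rise was 1.95-fold in WT (log2 0.96 ± 0.19, edgeR adjusted p = 0.00078) and 3.00-fold in KO (1.59 ± 0.19, edgeR adjusted p = 2.3e-05). The share of Ctsz in the summed cathepsin level per kilobase went from 8.76% ± 0.0226 to 45.5% ± 1.31 in WT (SD, n = 3) and from 9.98% ± 0.150 to 47.3% ± 0.375 in KO. The sum itself went from 728 ± 235 to 272 ± 26.7 CPM per kb in WT and from 472 ± 21.2 to 299 ± 2.19 in KO. Ctsz was the highest of the 36 members per kilobase after stimulation, at 124 CPM per kb in WT and 141 in KO. At rest that place was held by Psap, at 525 and 347 CPM per kb, ahead of Ctss at 258 and 189.

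Psap, which encodes the precursor of the saposins that help break down sphingolipids, measured 1942, 1261 and 976 CPM in WT resting and 215, 240.5 and 223 in WT stimulated libraries, and 914, 935 and 917 against 244, 256 and 238 in KO. It fell 6.16-fold in WT (log2 -2.62 ± 0.21) and 3.75-fold in KO (-1.91 ± 0.20). Hexa, the alpha subunit of beta-hexosaminidase, fell by 1.58 in WT and 1.13 in KO. It lies 91259 bp from Pkm on chromosome 9, and between the genotypes it differed by -0.01 ± 0.05 in stimulated cells. At rest Hexa measured 108, 72.6 and 62.1 CPM in WT and 55.0, 59.0 and 60.4 in KO, without overlap, a difference of -0.49 ± 0.22 (edgeR adjusted p = 0.40). Gaa, the acid alpha-glucosidase that digests glycogen, rose from 45.4 ± 5.45 to 61.4 ± 0.785 CPM in WT and from 42.4 ± 0.183 to 57.7 ± 1.20 in KO.

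**Figure D3:**
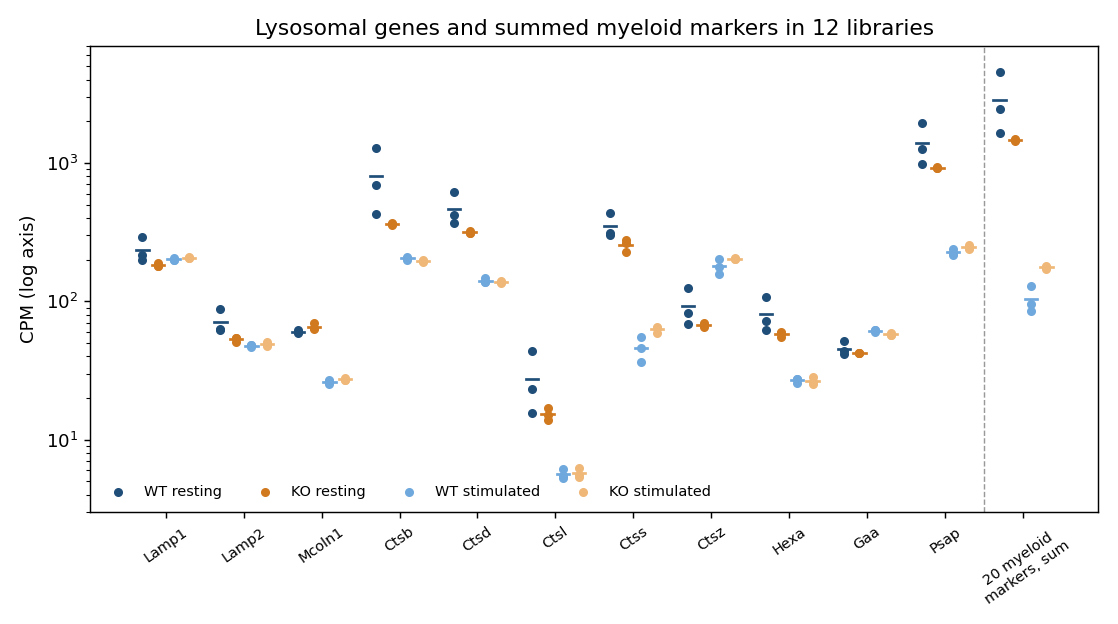
CPM on a log axis of the 11 lysosomal genes and of 20 summed myeloid markers, with 1 point a library, a short line at each group mean, and colours for the 4 groups. The WT resting points are spread out for Ctsb, Ctsd, Ctsl, Psap and the myeloid sum, the KO resting points are tight, and Ctsz and Gaa are the genes whose stimulated points all lie above the resting ones in both genotypes.

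The cathepsins other than Ctsz fell on stimulation, and so did all 20 myeloid markers, in both genotypes. The median log2 fold change of the markers was -5.29 in WT and -3.33 in KO. Their summed level was 27.7-fold lower in WT and 8.33-fold lower in KO stimulated cells, against 3.90-fold and 1.84-fold for Ctsb. Csf1r, a receptor of macrophages, measured 816, 402 and 202 CPM in WT resting, 162, 167 and 193 in KO resting and 0.638 to 2.05 in the stimulated libraries. Adgre1, which encodes the macrophage marker F4/80, was at 43.8 to 217 CPM in the resting and 0.467 to 2.47 in the stimulated libraries. Lyz2 was at 346 to 536 CPM and 1.69 to 7.59, and Cd68 at 27.9 to 105 and 3.31 to 6.09. Over the 6 resting libraries the level of Ctsb divided by the myeloid sum kept within 0.239 to 0.283. For the other cathepsins this ratio ran from 0.137 to 0.224 (Ctsd), 0.00933 to 0.0119 (Ctsl), 0.0969 to 0.186 (Ctss) and 0.0278 to 0.0472 (Ctsz). That of Psap ran from 0.431 to 0.635 and that of Lamp1 from 0.0648 to 0.128. In the stimulated libraries the ratio was 1.09 to 2.33 for Ctsb, 0.770 to 1.61 for Ctsd and 0.0305 to 0.0619 for Ctsl. It was 0.328 to 0.476 for Ctss, 1.14 to 1.85 for Ctsz, 1.36 to 2.53 for Psap and 1.14 to 2.32 for Lamp1. Without WT resting replicates 1 and 2, which had the highest myeloid sums (a comparison chosen after seeing the data), the WT changes became -1.06 for Ctsb, -1.37 for Ctsd, -1.47 for Ctsl, -2.72 for Ctss and -2.11 for Psap, all still called, and Ctsz stood at 1.38 and Lamp1 at 0.00. That comparison leaves 1 WT resting library, which is assumed to vary like the libraries of the other groups. Marker sums of other cells fell on stimulation too, in WT 3.05-fold for B cells, 5.72-fold for dendritic cells, 18.0-fold for neutrophils and 16.4-fold for erythroid cells. In WT they also fell 5.68-fold for NK cells and 2.10-fold for CD8 T cells. The sum of the 18 T cell genes was 1.61-fold lower in WT and 1.73-fold lower in KO. The part of RNA from any of these cells was not tested further.

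In resting cells no member passed the test between KO and WT: 0 of 36 were called by edgeR, 12 had an unadjusted p under 0.05 (13.7% of all genes), and DESeq2 called 2 (Ctsd at -0.58 and Atg101 at -0.27, both lower in KO), where it called 3.11% of all genes, 2.33% lower. By edgeR 0.0361% of all genes were called, 0.018% higher and 0.018% lower in KO. The autophagy core had a median log2 difference of -0.01 (11 above 0 and 12 below), beside 0.01 over all genes, and the lysosomal genes one of -0.46, with 10 of 11 below 0. The 5 cathepsins had a median of -0.58. The groups did not overlap for 7 lysosomal genes lower in KO, beside 10% of all genes, and for 1 higher, beside 9.86%. Over the 36 members 4 were higher and 12 lower without overlap, beside 19.9% of all genes in either direction. Among the lysosomal genes Ctsb had the widest difference, -1.16 ± 0.41 with an interval of -2.21 to -0.11 (edgeR adjusted p = 0.34), followed by Ctsl at -0.86 ± 0.41 and Psap at -0.61 ± 0.25. Mcoln1 was the lysosomal gene above 0, at 0.10 ± 0.05. In the core the scarce Map1lc3a had the largest difference, with 4.79 ± 0.836 CPM in WT (SD, n = 3) and 3.15 ± 0.412 in KO, without overlap (-0.62 ± 0.18, edgeR adjusted p = 0.30). Atg101 (-0.27 ± 0.07, edgeR adjusted p = 0.26), Gabarap (-0.20 ± 0.06) and Ulk2 (-0.16 ± 0.05) were lower and Rb1cc1 (0.18 ± 0.05) and Atg4b (0.12 ± 0.04) higher, with intervals that left out 0 and adjusted p-values above 0.05.

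**Figure D4:**
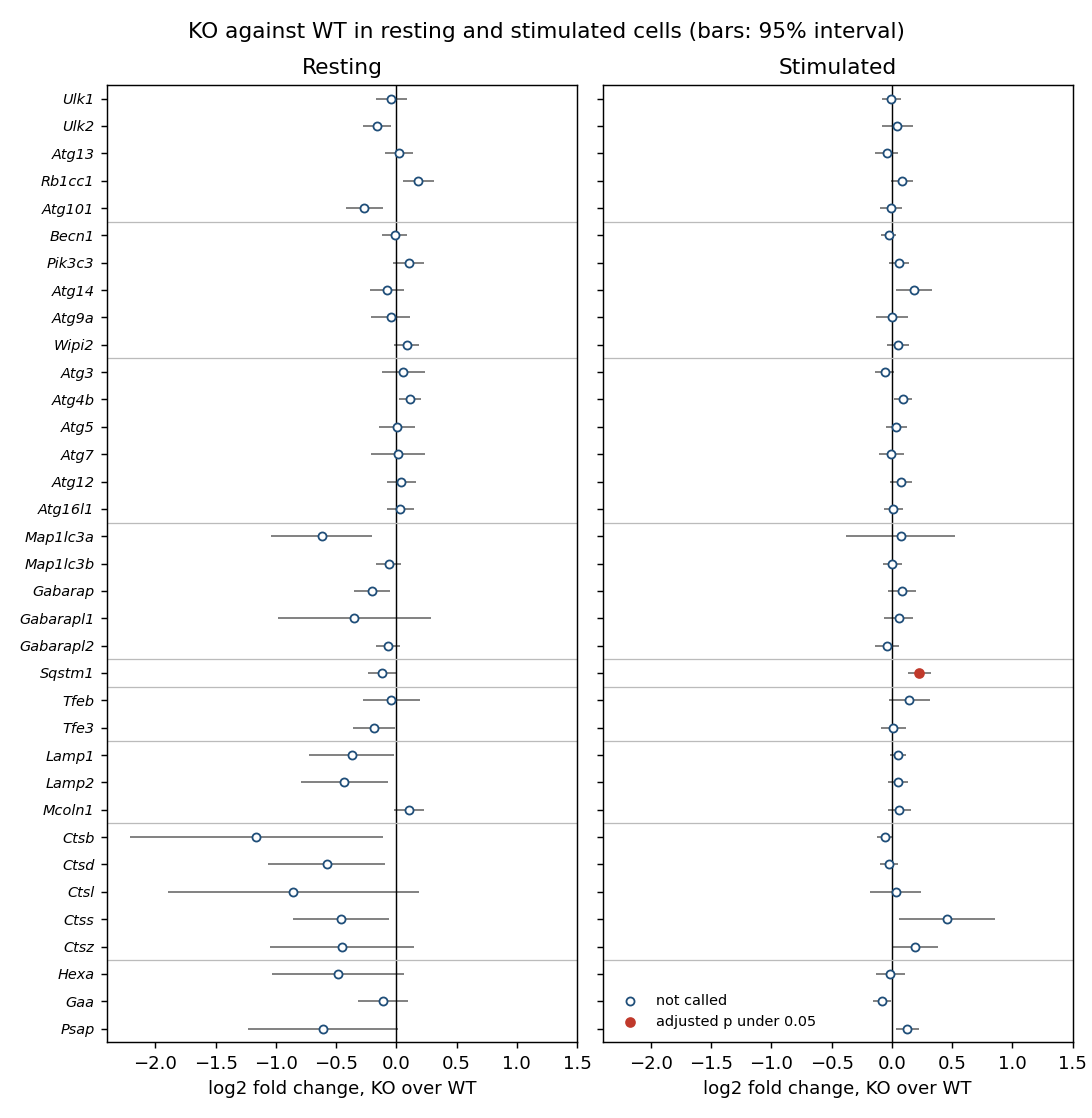
Log2 difference between KO and WT cells at rest (left) and after stimulation (right) for 35 members, leaving out the scarce Wipi1, with bars of the 95% interval. At rest the intervals of the cathepsins, Hexa and Psap are wide and lie mostly below 0, and after stimulation most intervals are narrow and cross 0, with Sqstm1 the filled point.

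The resting difference of the lysosomal genes moved with single WT libraries. WT resting replicate 1 exceeded replicate 3 by a median of 1.69-fold over the 11 lysosomal genes (0.990 to 2.97) and by 1.82-fold over the cathepsins, while the ratio was 0.968 over the 23 core genes and 0.965 over 12835 expressed genes. The myeloid sum differed 2.76-fold between the same libraries. It was not alone in this: the sums of neutrophil (3.76-fold), erythroid (26.5-fold), B cell (1.77-fold) and dendritic cell markers (1.69-fold) stood in the same order of replicates. The order replicate 1, then 2, then 3 held for 10 of the 11 lysosomal genes and 6 of the 23 core genes, beside 24.4% of expressed genes. Gabarapl1 (1.89-fold) and the scarce Wipi1 (2.36-fold) were the core genes above 1.5-fold. Between WT resting replicate 3 and the KO resting mean the ratios lay closer to 1, with the KO mean at 0.842 of replicate 3 for Ctsb, 0.944 for Psap and 0.988 for Ctsz, beside 0.898 for the myeloid sum.

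**Figure D5:**
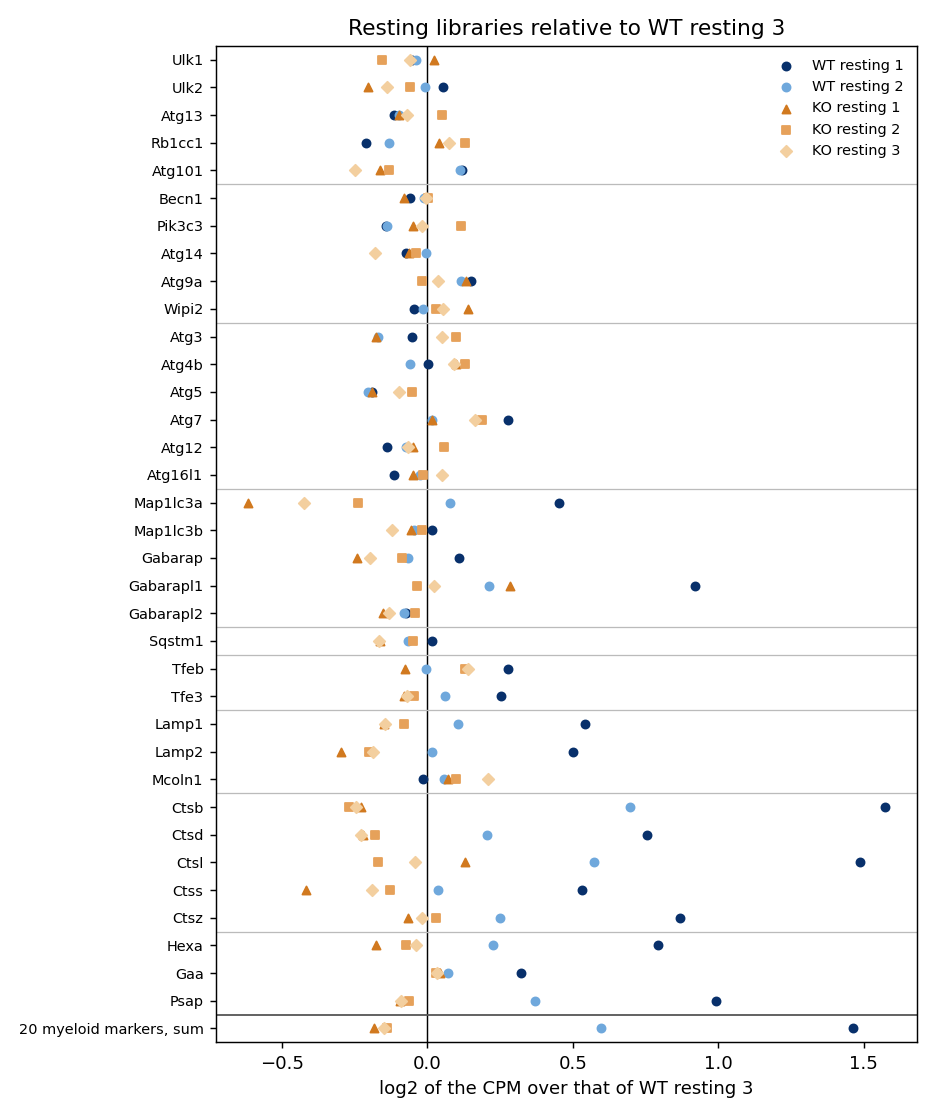
Log2 ratio of the CPM in each of 5 resting libraries to that in WT resting replicate 3, for 35 members by role (without Wipi1) and the sum of 20 myeloid markers. WT resting replicate 1 lies far to the right for the cathepsins, Psap, Hexa and the myeloid sum, replicate 2 lies between, and for the same genes the KO libraries lie nearer to 0.

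Without WT resting replicates 1 and 2 (chosen after seeing the data) the lysosomal median moved from -0.46 to -0.08, with Ctsb at -0.23, Ctsd at -0.19, Ctsl at -0.00 and Psap at -0.06. The libraries left out exceeded replicate 3 for 10 of the 11 lysosomal genes, so the choice itself makes these differences less negative. Only 1 WT resting library remains in that fit. With the myeloid level as a covariate the median was 0.06 and Ctsb stood at -0.05. Every KO resting library had a lower myeloid sum than every WT one, so that fit cannot tell the marker level apart from the genotype. Without WT resting replicate 3 the differences were larger, with Ctsb at -1.47 and Psap at -0.82, and no member was called (edgeR adjusted p = 0.086 and 0.088). The core median was -0.01, -0.02 and -0.04 in these 3 fits, in that order. The 20 myeloid markers were all below 0 in this comparison, with a median of -1.21, and none of them was called.

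The responses of WT and KO cells to stimulation were compared in 1 fit of all 12 libraries, and for 0 of 36 members did the difference pass the edgeR test, while 13 had an unadjusted p under 0.05 (15.9% of all genes) and DESeq2 called 2 (Sqstm1 at 0.31 and Ctss at 0.87), where it called 5.8% of all genes. By edgeR 0.693% of all genes were called, 0.556% with a KO response above that of WT and 0.137% below. The response of Sqstm1 was less negative in KO by 0.33 ± 0.07 (interval 0.17 to 0.49, edgeR adjusted p = 0.066), and its adjusted p over the 19 alternatives ran from 0.0044 to 0.17. The median difference was 0.01 for the core and 0.54 for the lysosomal genes, 10 of 11 above 0, with Ctsb at 1.09 ± 0.44, Ctss at 0.90 ± 0.25 and Psap at 0.72 ± 0.27. These comparisons share their resting libraries with the one above. Without WT resting replicate 3, 8 members were called (Atg101, Ctsb, Ctsd, Ctsl, Lamp1, Lamp2, Psap and Sqstm1), all with a KO response above that of WT, while 9.2% of all genes were called in that fit, 5.06% above. Without WT resting replicates 1 and 2, which leaves 1 WT resting library, Ctsb stood at 0.19 and Psap at 0.21. Myeloid markers had a median difference of 1.96, all 20 above 0.

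Other genes of the pathway moved in both directions on stimulation, beside 39.3% of all genes higher and 44.8% lower in WT, and 39.6% and 43.2% in KO. Of 30 further autophagy genes 6 rose and 20 fell in WT, and 6 and 19 in KO. Bnip3, a mitophagy receptor, rose by 1.88 ± 0.09 on the log2 scale in WT and 1.63 ± 0.09 in KO, and Tmem41b, a lipid scramblase, by 1.25 ± 0.04 and 1.13 ± 0.04. Tecpr1 changed by -3.60 ± 0.09 and -3.62 ± 0.09, and the cargo receptor gene Calcoco1 by -3.06 ± 0.05 and -2.76 ± 0.05.

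Of 16 subunits of the V-ATPase, the pump that acidifies the lysosome, 7 rose and 5 fell in WT, and 9 and 4 in KO. Atp6v1a (0.85 ± 0.05 in WT and 0.92 ± 0.05 in KO) and Atp6v1h (0.77 ± 0.05 and 0.76 ± 0.05) rose the most, and Atp6v1d (-1.01 ± 0.05 and -0.87 ± 0.05) and Atp6v0a2 (-0.79 ± 0.06 and -0.77 ± 0.06) fell the most. Of 30 other lysosomal hydrolases and cofactors 27 fell and 3 rose in WT, and 24 and 3 in KO. Gusb, a beta-glucuronidase, rose by 1.45 ± 0.05 and 1.47 ± 0.05, and Gla, an alpha-galactosidase, by 0.99 ± 0.09 and 1.04 ± 0.09. Among genes with a mean of at least 3 CPM the largest falls were those of the proteases Lgmn (-3.87 ± 0.39) and Ctsw (-3.66 ± 0.12) in WT and of Ctse (-4.24 ± 0.49) and Ctso (-3.17 ± 0.09) in KO. Of 21 other genes of the lysosomal membrane and of nutrient sensing, 7 rose and 13 fell in each genotype. Lamtor5, a subunit of the Ragulator complex, rose 1.99-fold in WT cells (2.01-fold for KO), while Fnip2 rose by 0.96 ± 0.28 and 1.48 ± 0.29. Mitf (-2.09 ± 0.22) and Cd63 (-2.03 ± 0.23) had the largest falls in WT by the same rule, and Laptm5 (-1.51 ± 0.05) and Slc38a9 (-1.48 ± 0.08) in KO.

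Between stimulated KO and WT cells Calcoco1 (0.33), Lgmn (0.52) and Laptm5 (0.17) were among the genes of these lists called higher in KO, and Asah1 (-0.21) and Gusb (-0.14) were called lower. At rest none of the genes was called by edgeR, and the median log2 difference over all genes was 0.01. Below 0 in KO were 14 of 30 further autophagy genes and 15 of 16 V-ATPase subunits. The same held for 27 of 30 hydrolases and cofactors and 19 of 21 genes of the membrane and nutrient sensing. All 20 myeloid markers and 2 of 14 B cell markers were below 0 as well. The sums of myeloid, other non-T cell and T cell markers all fell on stimulation, as given above, and their part was not tested.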

How the data were processed

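The authors deposited expected counts per gene for the 12 libraries in separate resting and stimulated tables. Per the labels, libraries were made from polyA RNA with a stranded mRNA kit. Per the submitters' processing notes the build was mm10 and the tools included STAR 2.7.0f, RSEM 1.3.1, bcl2fastq 2.20 and cutadapt 1.18. No source used here gives the strand setting. Exons of other genes overlap those of Rb1cc1, Becn1, Atg14, Atg9a, Map1lc3b, Gabarapl1, Sqstm1, Lamp1, Ctsb, Ctsd, Ctsl, Ctsz and Hexa. For Atg9a, Ctsd and Ctsl this includes a gene on the same strand, and for the others the overlap is on the opposite strand. The estimated counts were rounded to whole numbers. Genes passed filterByExpr in edgeR 4.0.16 (R 4.3.3; at least 10 counts, total 15) and were scaled by TMM. The quasi-likelihood test was fitted to the 6 libraries of each condition for KO against WT, and to all 12 for the responses and their difference, with Benjamini-Hochberg adjustment over all genes and a threshold of 0.05. Intervals are 95% from the test's degrees of freedom. The script was tested on simulated data. DESeq2 1.42.0, other filters, scalings and left-out libraries were alternatives. The genes named were all 36 members, and for other lists up to 2 called genes per direction with the largest change and a mean of at least 3 CPM. Members and lists were chosen with earlier results of these data known. The result of 1 gene of these other lists is not reported here.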

Additional observations from a re-analysis of the deposited data

How the results depend on the processing

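Of the members called on stimulation, 26 of 33 in WT and 26 of 33 in KO kept direction and call under every alternative run. With unscaled library totals the members higher after stimulation numbered 4 in WT and 5 in KO, beside 31.8% and 31.7% of all genes. Signs then turned in WT for Atg16l1 (-0.16), Atg3 (-0.025), Atg4b (-0.17), Becn1 (-0.088), Tfe3 (-0.32) and Wipi2 (-0.24), and in KO for Atg16l1 (-0.18), Atg3 (-0.15), Atg4b (-0.20), Becn1 (-0.11), Lamp1 (-0.16), Tfe3 (-0.13) and Wipi2 (-0.29). A filter of 1 CPM in 3 libraries gave -0.041 for Tfe3 in WT and -0.0040 for Wipi2 in KO, no filter gave -0.0010 for Tfe3 in WT, and leaving out single libraries gave -0.025 to 0.10 for it. For resting KO against WT, DESeq2 called 2 members lower (Ctsd and Atg101), beside 2.33% of all genes, and the fit of 12 libraries 1 (Atg101), beside 0.527%. With the myeloid covariate resting signs turned for Ctsl (0.20), Ctsz (0.15), Gabarapl1 (0.30), Hexa (0.059), Lamp1 (0.0031) and Psap (0.076), and stimulated signs for Ctsz (-0.039), Gabarap (-0.086) and Psap (-0.011). Myeloid sums of WT and KO did not overlap in either condition, so these fits cannot tell that level apart from the genotype. Without WT resting replicates 1 and 2, an alternative added after seeing the data, Gabarapl1 stood at 0.12 at rest and -0.042 in the difference of responses, and Lamp1 at 0.0026 on stimulation in WT. Members higher in stimulated KO cells numbered 0 in the fit of 12 libraries and with the covariate, beside 1.09% and 4.34% of all genes. They numbered 0 to 5 when single libraries were left out, beside 0.717% to 5.95% of all genes. Whether replicate numbers pair the libraries was not settled. Deviations from the group mean correlated at -0.10 to 0.30 between same-numbered WT and KO libraries at rest, and at -0.35 to 0.22 between the others. After stimulation these ranges were -0.02 to 0.01 and -0.03 to 0.02. With the replicate as a block 2 members were higher in stimulated KO cells (Sqstm1 and Psap), beside 4.65% of all genes. For the difference of responses, DESeq2 called 2 members (Sqstm1 and Ctss), both filters and unscaled totals 1 (Sqstm1), and leaving out single libraries 0 to 8. Of all genes DESeq2 called 5.8%, the filter of 1 CPM 1.51%, no filter 0.505% and unscaled totals 1.01%. Leaving out single libraries called 0.151% to 9.2%. Wipi1 ran from -0.71 to 0.83 there. Unless the construction of a setting shows it, the cause was not tested. Wipi1 and Map1lc3a had the lowest counts and the least precise values. Wipi1 did not pass the filter of 1 CPM in 3 libraries in stimulated KO against WT.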
